A study of Mus musculus with 8 samples.

Results

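The Myc and Myb family transcription factors were taken as 5 genes of the 27998 gene rows in the count table, Myc, Mycn, Mycl, Myb and Max, chosen by name. All 5 rows held unique molecular identifier (UMI) counts, the counts of single captured RNA molecules, in 29891 single cells. The cells were bone marrow KL cells, which lack the lineage markers CD3, CD4, CD8, CD45R, CD11b, TER119 and GR1 and carry CD117, the Kit receptor, and which hold the blood stem and progenitor cells. They came from female C57BL/6 (B6) mice aged 3 to 4 months, pooled by 2 or 3 mice into 8 libraries. The 4 SPF pools came from mice kept in a specific-pathogen-free barrier facility, and the 4 CVT pools from mice that had been moved to a conventional facility and co-housed there for 1 month. No allele, drug or transplant set the groups apart. By the paper's account the facilities also differed in chow, cage covering and ventilation, and CVT mice shared cages with mice born in the conventional facility. The paper names food, ventilation and cage covering as possible confounders. Pools 1, 2, 7 and 8 were SPF and pools 3, 4, 5 and 6 were CVT, where the number at the end of a cell's name was read as the mouse pool number in the sample descriptions, and cell totals did not settle that reading. Pools 1 to 4 and pools 5 to 8 held differently numbered mice and formed pool sets 1 and 2, each with 2 pools of either housing.

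Myc proteins are short-lived factors that bind DNA as pairs with Max, most often at the E-box CACGTG, and are known for driving ribosome production, nucleotide and amino acid synthesis and entry into the cell cycle. Myc, Mycn and Mycl can stand in for one another in part, and in bone marrow Myc and Mycn together sustain stem cells while Myc is known for balancing self-renewal against differentiation. Max also pairs with the Mxd proteins and Mnt, which act at the same sites as repressors. Some Mxd proteins, Mxd1 among them, are known from cells that leave the cycle. Myb is a separate DNA-binding factor, best known for keeping immature blood cells immature and dividing, and its loss stops definitive blood formation.

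The pools held 1888 to 4845 cells and 19041749 to 59812346 UMIs, and single cells held 2759 to 49732 UMIs. Cells were placed in 34 clusters with the members and the genes of the lists below, except Myb targets and markers, kept out of the clustering genes, and 10 classes named from marker genes were compared. The LTHSC-like class (long-term stem cell) held 1324 cells, the MPP-like class (multipotent progenitor) 4401, the LMPP-like class (lymphoid-primed) 2978, the megakaryocyte-like class 1629, the MEP-like class (erythroid) 8470, the basophil and mast-like class 909, the GMP-like class (granulocyte-monocyte progenitor) 3136, the monocyte-like class 3732, the late granulocyte-like class 1651 and the dendritic-like class 137. No cluster could be called a common myeloid progenitor from its markers, and 4 clusters with 1307 cells stayed unnamed. The late granulocyte-like cells are a type that the lineage sort should largely remove. So are the 533 cells of monocyte-like cluster 24, led by S100a4, Fn1 and Ccl6. Monocyte-like clusters 4 and 8, with 1904 and 1295 cells, had Irf8, Ly86 and F13a1 among their leading genes. They also carried 5 and 6 GMP markers, and whether they are progenitors was not tested. Cell barcodes recurred in 2 pools for 518 barcodes and in 3 pools for 4, and the cells that carried them made up 3.51% of all cells.

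Over all KL cells the level of each member, as UMIs per 1000000 UMIs (CPM), overlapped between the housing groups. Myc, the family's main member, stood at 118, 110, 90.8 and 98.7 CPM in SPF pools 1, 2, 7 and 8 and at 107, 94.9, 98.3 and 91.4 CPM in CVT pools 3 to 6. The highest values were those of SPF pools 1 and 2, the lowest was that of SPF pool 7, and the groups overlapped. Mycn was counted at 13.4, 12.9, 15.6 and 20.2 CPM in the SPF pools and at 11.05, 7.36, 15.97 and 13.1 CPM in the CVT pools. CVT pool 4 was lowest and SPF pool 8 highest, again with overlap. Mycl stood at 0.788, 0.810, 0.555 and 0.621 CPM in the SPF pools and at 0.486, 0.485, 0.597 and 0.493 CPM in the CVT pools, and rested on 196 UMIs in all. Myb was counted at 199.8, 208, 198 and 202 CPM in the SPF pools and at 197.6, 187, 209 and 192 CPM in the CVT pools, and was found in 76.4% of cells. Max, the shared partner, was at 73.8, 68.2, 64.3 and 69.3 CPM in the SPF pools and at 75.2, 68.6, 63.6 and 66.1 CPM in the CVT pools. Each of these 5 genes had overlapping groups, and over all 13092 genes tested 6.16% had CPM ranges of the groups apart.

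No member passed the test of housing in KL cells. In edgeR's quasi-likelihood test the log2 fold change of CVT against SPF was -0.04 for Myc (SE 0.0764, adjusted p = 0.927), -0.36 for Mycn (SE 0.22, adjusted p = 0.760), -0.38 for Mycl (SE 0.2, adjusted p = 0.722), 0.01 for Myb (SE 0.0497, adjusted p = 0.974) and 0.04 for Max (SE 0.0625, adjusted p = 0.906). Permuting the housing labels of the pools in all 70 ways (exact, two-sided, smallest possible p 0.0286) gave p = 0.4, 0.229, 0.0571, 0.314 and 0.857 in the same order. The CPM mean of Myb was lower in CVT pools (197 ± 9.50, SD, n = 4) than in SPF pools (202 ± 4.47, SD, n = 4), while the fitted value, scaled by trimmed means, was on the other side of 0. Of all genes 0% passed an adjusted p of 0.05 in edgeR, while an unadjusted p was under 0.05 for 392 genes that were higher and 529 that were lower, and DESeq2 called 5 higher and 10 lower, none of them a member. Within pool set 1 the mean level of Myc was 101 CPM in CVT and 114 CPM in SPF pools, and within set 2 it was 94.9 and 94.8 CPM. The mean level of Mycn was 9.20 against 13.2 CPM in set 1 and 14.5 against 17.9 CPM in set 2, so it was lower in CVT pools within both sets. With a pool left out the log2 fold change of Mycn ran from -0.53 without CVT pool 5 to -0.19 without CVT pool 4 or SPF pool 8. The interaction of housing and pool set passed for no member (edgeR adjusted p between 0.668 and 0.930).

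Of the 2 named classes highest in Mycn, only the LTHSC-like class had a lower mean share of cells in CVT pools. It made up 1.73% to 4.81% of cells in CVT pools and 4.45% to 7.87% in SPF pools. It held 14.1% of all Mycn UMIs in 4.43% of the cells. The megakaryocyte-like class made up 5.10% to 6.24% of cells in CVT pools and 3.83% to 5.999% in SPF pools. That class held 21.4% of all Mycn UMIs in 5.45% of the cells. The part of cell make-up in the KL value of Mycn was not tested. In sums over a whole pool, fewer cells of a type and less RNA per cell cannot be told apart.

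**Figure D1:**
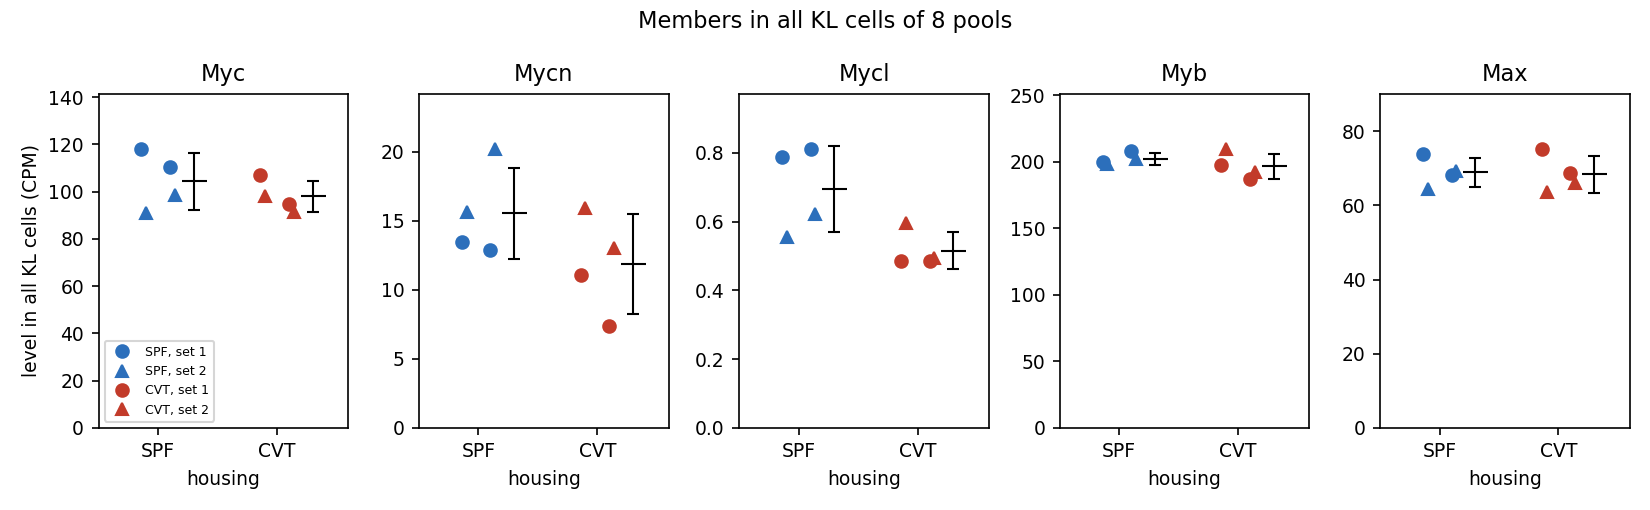
Level of each member over all KL cells in CPM, with its own vertical axis, for the 4 SPF and the 4 CVT pools. Points are pools (circles for pool set 1, triangles for set 2) and bars are the mean and SD (n = 4), and SPF and CVT points overlap for every member.

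Among the named classes Mycn was highest in the LTHSC-like and megakaryocyte-like classes, but it was not confined to them. Unnamed cluster 26, with 4 markers of common myeloid progenitors and 5 MEP markers, held 69.7 ± 20.4 CPM (SD, n = 8 pools). MEP-like cluster 1 held 660 Mycn UMIs at a mean of 46.7 CPM, against 630 UMIs in the LTHSC-like class. Unnamed cells held 11.6% of all Mycn UMIs in 4.37% of the cells. In the LTHSC-like class Mycn was at 78.7, 58.4, 94.1 and 91.9 CPM in SPF pools 1, 2, 7 and 8 and at 70.1, 91.0, 79.7 and 71.0 CPM in CVT pools 3 to 6. Its mean there was 79.4 ± 12.6 CPM (SD, n = 8 pools) and 70.8 ± 12.97 CPM in the megakaryocyte-like class. It was 23.6 CPM in the LMPP-like, 14.7 in the MPP-like, 13.6 in the basophil and mast-like and 9.21 in the MEP-like class. It was 4.18 CPM in the late granulocyte-like and 1.499 in the dendritic-like class (1 UMI), 0.939 in the monocyte-like and 0.795 in the GMP-like class. The GMP-like value rested on 43 UMIs. These levels moved with the clustering. At resolution 1 Mycn stood at 53.6 CPM in the LTHSC-like, 60.5 in the megakaryocyte-like and 7.59 in the MPP-like class, and with 50 principal components at 57.3, 59.3 and 8.32 CPM, so the order of the first 2 classes turned. With the members and list genes clustered the MPP-like value was 24.2 CPM. With each cell thinned to 2500 UMIs, 16.8% of LTHSC-like cells, 16.2% of megakaryocyte-like cells and 0.170% of GMP-like cells held a Mycn UMI. The thinned share was 4.47% in MEP-like, 4.25% in MPP-like and 3.49% in basophil and mast-like cells (SD 1.06, 1.45 and 1.92). The MEP-like class, lowest of these by CPM, was thus highest by share, and CPM of summed counts weighs deep cells more. The unthinned shares were 31.6% in LTHSC-like and 1.19% in GMP-like cells, whose median UMI counts per cell were 5531 and 15926. In late granulocyte-like cells the thinned share was 0.892% at a median of 7167 UMIs, and cluster 27 held 56 of the 71 Mycn UMIs of that class (14.3 CPM). Late granulocyte-like clusters 19 and 21 stood at 0.687 and 1.43 CPM, and the GMP-like level of 0.795 CPM lay between them.

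Myc was spread more evenly and was low in the most mature classes. Its highest class mean was 134 CPM in the MPP-like class, where SPF pools 1, 2, 7 and 8 held 170, 129, 117 and 124 CPM and CVT pools 3 to 6 held 148, 134, 131 and 122 CPM. It was followed by the LMPP-like class at 115, the megakaryocyte-like at 111, the MEP-like at 108, the LTHSC-like at 100.4, the GMP-like at 99.3, the monocyte-like at 91.9 and the basophil and mast-like class at 90.3 CPM. The late granulocyte-like class held 24.9 CPM and the dendritic-like class 22.2 CPM (20 UMIs, pools from 0 to 47.9 CPM). Cluster 27 held 251 of the 360 Myc UMIs of the late granulocyte-like class, while its clusters 19 and 21 stood at 9.64 and 11.1 CPM. At resolution 1 the LTHSC-like class came second at 121 CPM, before the LMPP-like at 118, the MEP-like at 108 and the megakaryocyte-like at 90.9 CPM, so the middle of this order depended on the clustering. The step from the basophil and mast-like to the late granulocyte-like class was 3.63 times. A Myc UMI was found in 27.8% of MPP-like and 4.70% of late granulocyte-like cells after thinning, against 62.6% and 15.3% before it.

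By class mean Myb was highest in basophil and mast-like cells and then in the MEP-like and GMP-like classes, while 4 erythroid clusters (6, 1, 11 and 28, at 402, 348, 341 and 332 CPM) lay above the single basophil and mast-like cluster. Basophil and mast-like cells held 352, 327, 317 and 356 CPM in SPF pools 1, 2, 7 and 8 and 281, 297, 334 and 361 CPM in CVT pools 3 to 6, with a mean of 328 CPM. The MEP-like mean was 251, the GMP-like 211, the MPP-like 205, the LMPP-like 174, the LTHSC-like 165, the monocyte-like 149 and the megakaryocyte-like 129 CPM. The late granulocyte-like mean was 68.7 and the dendritic-like 58.2 CPM, so the ends of the order differed by 5.64 times. A Myb UMI was found in 54.4% of basophil and mast-like and 12.5% of late granulocyte-like cells after thinning, and in 84.2% and 33.0% before it.

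Mycl was highest in the dendritic-like cells. Its level there was 52.2, 73.5, 44.0 and 38.3 CPM in SPF pools 1, 2, 7 and 8 and 71.8, 27.2 and 52.2 CPM in CVT pools 3, 5 and 6, with CVT pool 4 left out for holding under 10 such cells. The mean was 51.3 ± 16.9 CPM (SD, n = 7 pools), resting on 40 UMIs, and was 29.9 times the mean of the monocyte-like class, 1.72 CPM. The LMPP-like class held 1.16 CPM, the other classes 0.275 CPM or less, and the basophil and mast-like class no UMI. After thinning, 12.4% of dendritic-like cells held a Mycl UMI. The class was defined by Siglech, Cd74, Cst3 and class II genes, and neither Mycl nor any other member took part in the clustering.

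Max varied least. Its class means ran from 61.6 CPM in the dendritic-like to 79.2 CPM in the late granulocyte-like class. Max levels in the late granulocyte-like class were 97.7, 78.7, 82.9 and 77.3 CPM in SPF pools 1, 2, 7 and 8 and 79.8, 65.8, 72.1 and 79.4 CPM in CVT pools 3 to 6. The promoter of Max, shown because it was the only one of the 4 member promoters found that held the E-box, carried the box at position -3 from its RefSeq start (GRCm38.p6, chr12:76962199-76962498, minus strand, from 250 bases before to 50 bases after the start). The box CACGTG is in capitals, and it reads the same on both strands:
Max: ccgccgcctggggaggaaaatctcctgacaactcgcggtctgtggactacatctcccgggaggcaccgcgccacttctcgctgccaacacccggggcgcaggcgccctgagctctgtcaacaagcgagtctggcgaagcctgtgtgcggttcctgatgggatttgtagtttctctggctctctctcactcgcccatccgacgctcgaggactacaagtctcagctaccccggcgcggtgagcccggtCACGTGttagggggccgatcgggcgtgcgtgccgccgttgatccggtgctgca
Of 27025 promoters of this length 7.24% held the box. The windows of Mycn, Mycl and Myb did not hold these letters, and Myc was not matched.

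The order of the classes was tested between neighbours. None of the 45 neighbour pairs of the 5 members passed an adjusted p of 0.05 in the exact sign-flip permutation test over pools (two-sided, smallest possible p 0.00781 with 8 pools). The 7 pairs that reached that smallest p had an adjusted p of 0.0502, with the same direction in all 8 pools. For Myb these were basophil and mast-like above MEP-like, MEP-like above GMP-like, MPP-like above LMPP-like and megakaryocyte-like above late granulocyte-like. For Mycn they were megakaryocyte-like above LMPP-like and LMPP-like above MPP-like, and for Myc basophil and mast-like above late granulocyte-like. Mycl in dendritic-like above monocyte-like cells had the same direction in 7 of 7 pools, with the smallest p that 7 pools allow (exact permutation p = 0.0156, adjusted p = 0.0703). Myc in MPP-like above LMPP-like and Mycn in MEP-like above late granulocyte-like cells went the same way in 7 of 8 pools (exact permutation p = 0.0156, adjusted p = 0.0703), and Myb in monocyte-like above megakaryocyte-like cells in 6 of 8 (exact permutation p = 0.0312, adjusted p = 0.128). The other 34 pairs, all of Max among them, had an unadjusted p above 0.05, which does not show that these neighbours are alike.

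**Figure D2:**
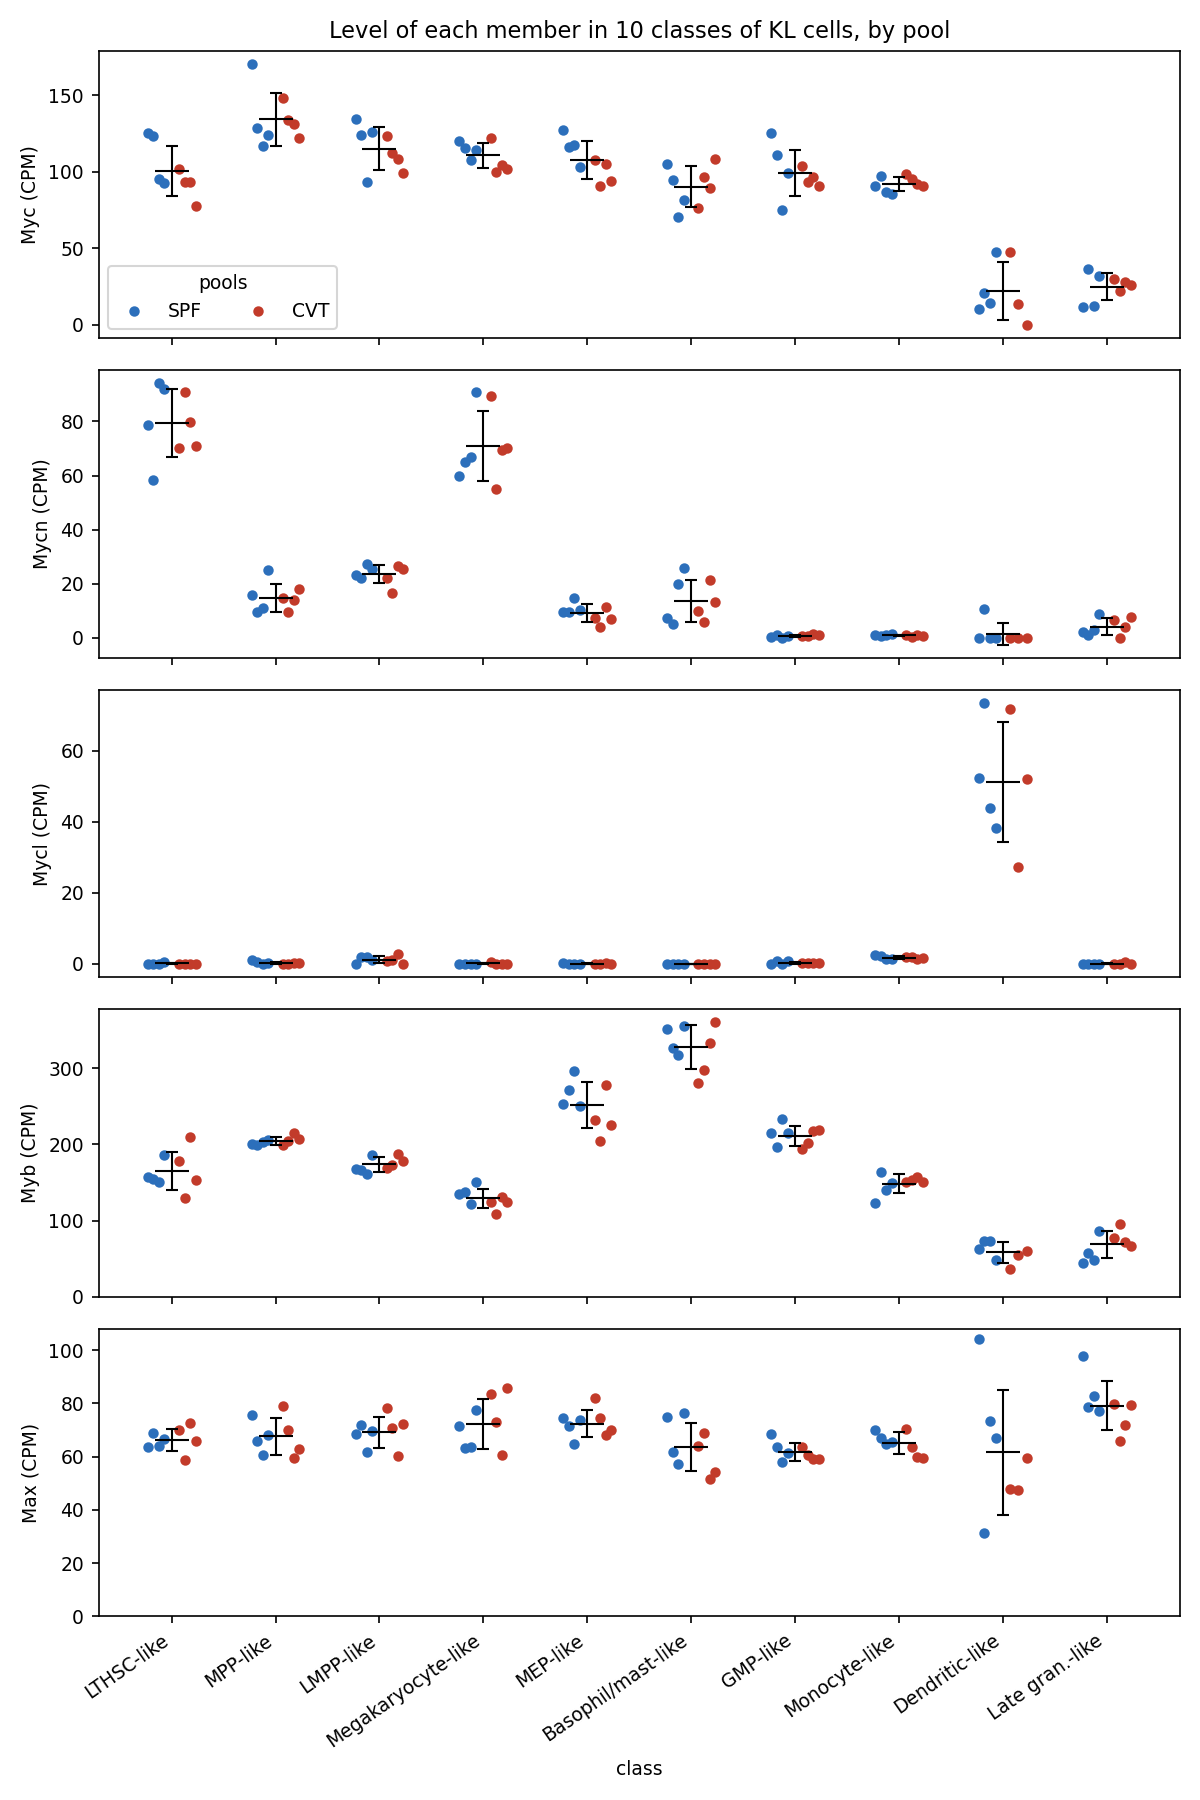
Level of each member in CPM in the 10 named classes. Points are pools, and horizontal bars with error bars are the mean and SD over 8 pools (7 for the dendritic-like class). Mycn stands high in the LTHSC-like and megakaryocyte-like classes and Mycl in the dendritic-like class, while Max runs from 61.6 to 79.2 CPM.

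Each class was next set against the LTHSC-like class in one edgeR fit over all classes with the pool as a block. All 9 comparisons share the LTHSC-like sums as their control. Of all 11110 genes tested, the share called higher and lower was 18.1% and 21.6% in the basophil and mast-like, 15.3% and 22.9% in the dendritic-like, 32.0% and 39.5% in the GMP-like, 17.2% and 18.8% in the LMPP-like, 31.6% and 38.2% in the late granulocyte-like, 34.4% and 38.5% in the MEP-like, 20.8% and 28.1% in the MPP-like, 21.9% and 26.7% in the megakaryocyte-like and 31.3% and 39.0% in the monocyte-like class. Against that background the 5 members gave 45 tests, 15 called higher and 13 called lower. Mycn was lower in 8 of the 9 classes, by a log2 fold change of -6.07 in GMP-like (SE 0.202), -6.09 in monocyte-like, -3.08 in late granulocyte-like, -2.93 in MEP-like, -2.35 in basophil and mast-like, -2.31 in MPP-like and -1.64 in LMPP-like cells, with the dendritic-like value resting on 1 UMI. In megakaryocyte-like cells the Mycn value was -0.04 (SE 0.12, adjusted p = 0.838).

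Myb rose in 4 classes, with a log2 fold change of 1.05 in basophil and mast-like (SE 0.0693), 0.78 in MEP-like, 0.64 in GMP-like and 0.34 in MPP-like cells (edgeR adjusted p of 4.77e-06 or less). It fell in dendritic-like cells by 1.72, in late granulocyte-like cells by 0.37 and in megakaryocyte-like cells by 0.34 on the log2 scale. Myc rose by a log2 fold change of 0.46 in MPP-like (SE 0.078), 0.30 in MEP-like, 0.29 in GMP-like and 0.27 in LMPP-like cells, and fell by 1.03 on that scale in late granulocyte-like cells and to -2.19 in dendritic-like cells. Max was called higher in late granulocyte-like cells at 1.15 (SE 0.0799), in MEP-like cells at 0.30, in monocyte-like cells at 0.17 and in GMP-like cells at 0.16. Mycl was called higher in dendritic-like, monocyte-like and LMPP-like cells, where its fitted size depends on the prior count because LTHSC-like cells held 1 Mycl UMI.

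The small rises depended on the scaling. With relative log expression (RLE) factors in place of trimmed means, the median log2 fold change of all genes moved from -0.11 to -0.32 in the GMP-like, from -0.05 to -0.25 in the MEP-like and from -0.09 to -0.27 in the monocyte-like class. The share of called genes that were higher moved from 44.7% to 33.5% in the GMP-like, 47.2% to 36.1% in the MEP-like, 44.5% to 33.8% in the monocyte-like and 47.8% to 36.7% in the LMPP-like class. Max then stood at -0.04 in GMP-like and -0.01 in monocyte-like cells, the other side of 0, and Myc in GMP-like and MEP-like cells, at 0.09 and 0.10, and Max in MEP-like cells, at 0.10, no longer passed. In late granulocyte-like cells, where the marker genes of that class took 380237 CPM, the ratio of CPM means was -2.01 for Myc, -1.27 for Myb and 0.26 for Max on the log2 scale, each lower than the fitted value. In GMP-like cells the ratio of CPM means of Myc was -0.01 on the log2 scale (99.3 against 100.4 CPM) and that of Max -0.10, and in monocyte-like cells that of Max was -0.02, all on the other side of 0 from the fitted values.

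Within a class the members differed between clusters. In the MEP-like class Myb was highest in cluster 6 (402 ± 32.7 CPM, SD, n = 8 pools), led by Csrp3, Trib2, Tspo2, Aqp1 and Car1, and next in cluster 1 (348 CPM) and cluster 11 (341 CPM). It was 130 ± 13.6 CPM in cluster 9, led by Mt2, Rhd and Cldn13, and 47.6 ± 15.9 CPM (n = 4 pools) in cluster 31, the 137 cells led by globin genes and Alas2. Myc in the same clusters went from 142, 127 and 145 CPM to 77.8 and 22.4 CPM. Mycn was 46.7 ± 9.37 CPM in cluster 1, 10.7 in cluster 6 and 2.50 CPM or less in clusters 9, 11, 16, 18 and 31. The median UMI count per cell was 4993 in cluster 1 and 29180 in cluster 9.

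The myeloid and multipotent classes were uneven as well. Monocyte-like cluster 4 held 127.5 ± 9.15 CPM of Myc and cluster 24, led by S100a4, Fn1 and Ccl6, held 11.8 ± 7.51. GMP-like cluster 25, which carried Cebpa, was highest of its class in Myc (147 CPM) and Myb (279 CPM). Of the MPP-like clusters, cluster 3 held the highest Myc of all 34 clusters (160 ± 22.2 CPM) with Mycn at 6.28 CPM, whereas cluster 5, led by the stem cell regulator Hlf, held Mycn at 34.7 ± 10.9 CPM. Late granulocyte-like cluster 19 had the lowest Myc (9.64 CPM) and the highest Max (108 ± 13.7 CPM) of all clusters. Late granulocyte-like cluster 27 still held 79.0 CPM of Myc and 169 CPM of Myb, and doublets were neither called nor removed. The highest Mycn of any cluster, 105 ± 27.1 CPM (n = 5 pools), was that of the unnamed cluster 33, 91 cells led by Ccl5, Rora, Tcf7 and Gata3. The clusters are cuts of the same cells, and no test was made between them.

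**Figure D3:**
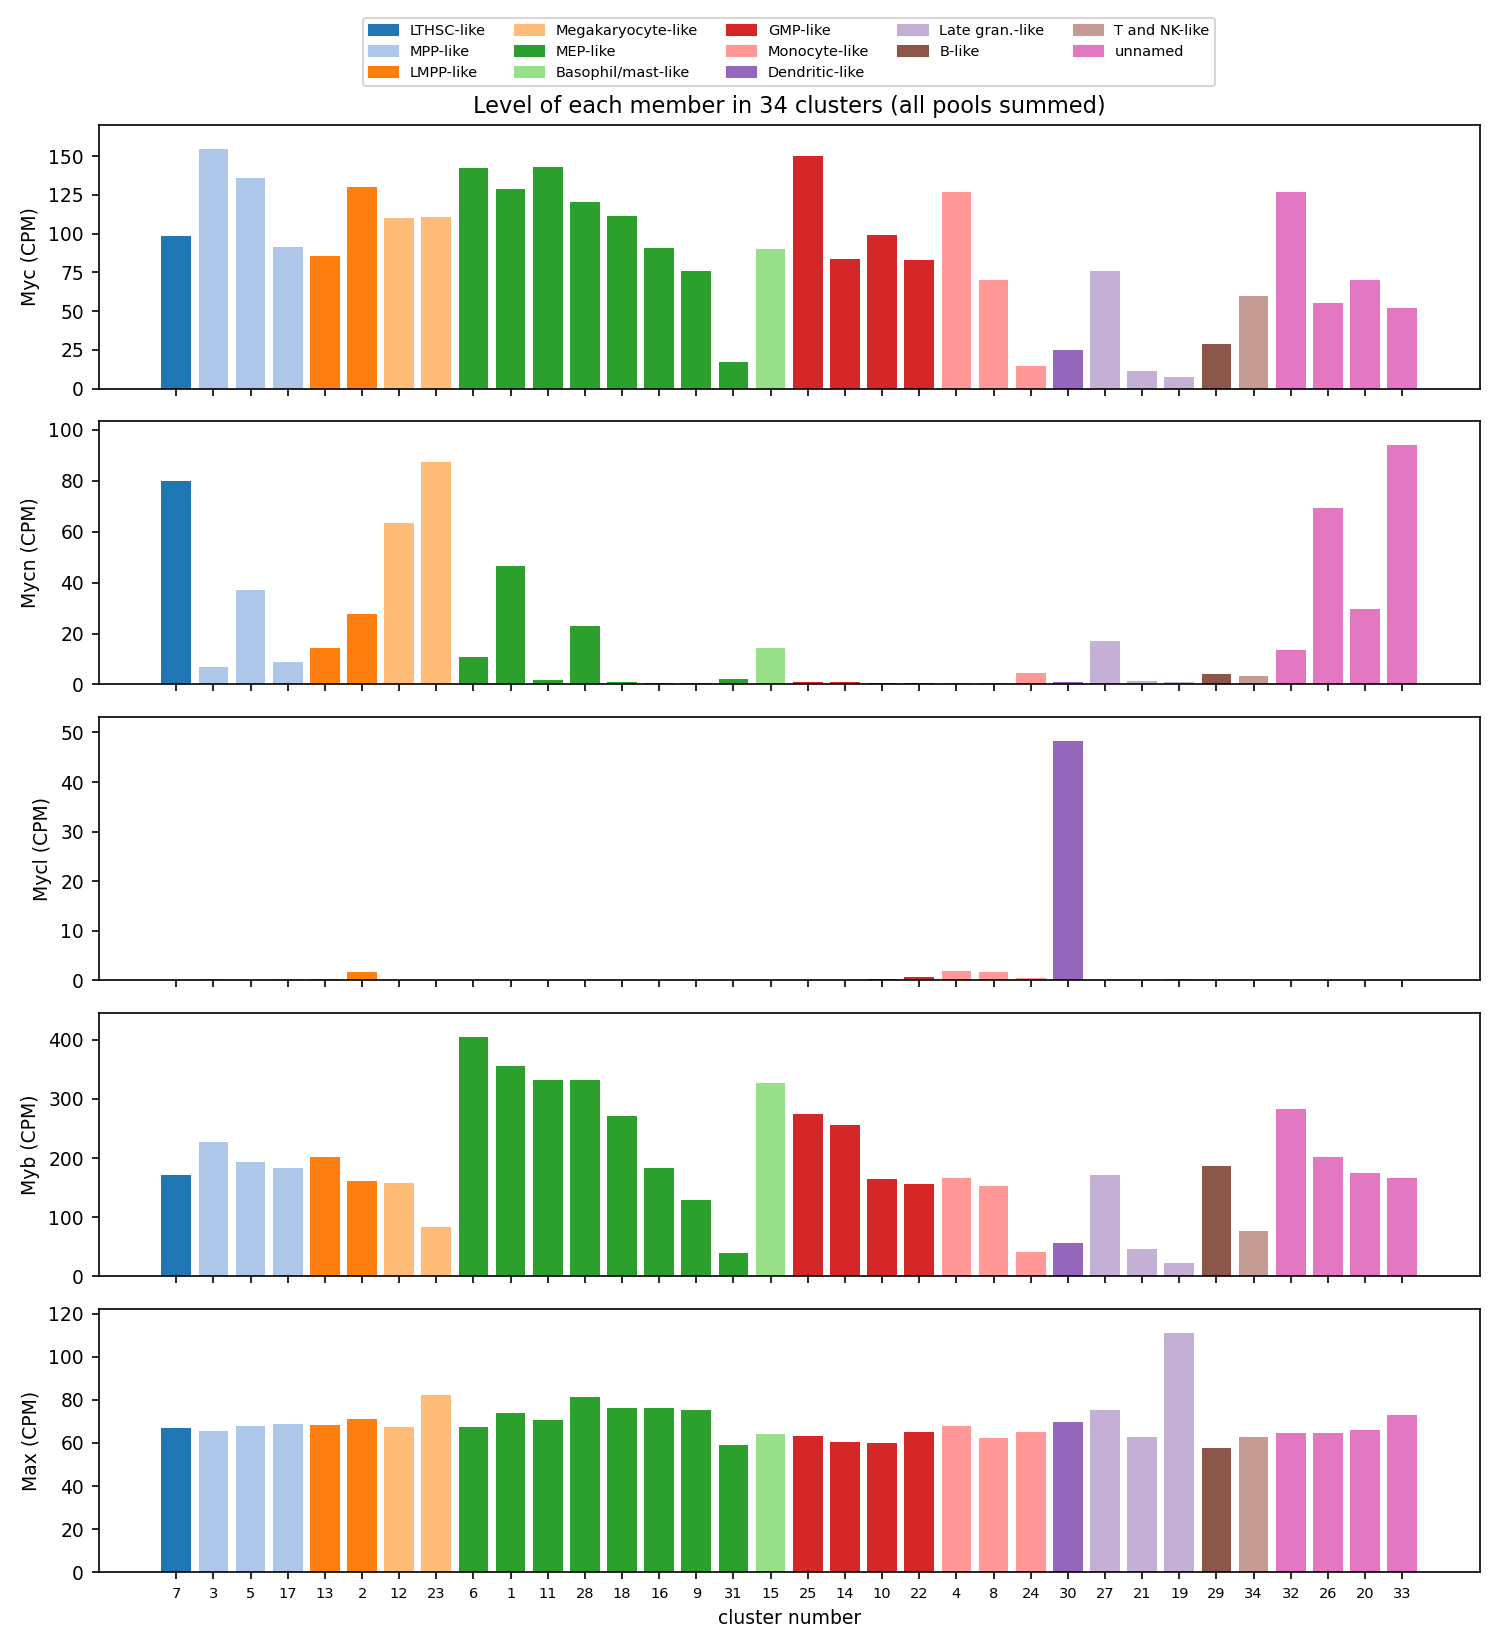
Level of each member in CPM in the 34 clusters, all pools summed, grouped by class. Mycn is uneven, with 46.5 CPM in MEP-like cluster 1 against 10.8 CPM in cluster 6, while Myc and Myb are both low in clusters 9 and 31 of the erythroid cells and in cluster 24 of the monocyte-like cells.

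Over the 34 clusters the log2 levels of Myc and Myb had a Pearson r of 0.852, and those of Myc and Mycn 0.273. Clusters share pools and differ in depth, so these are descriptions. Of 10220 genes compared, those most alike to Myc were Trub1, Abhd14a and Dctd (r of 0.949, 0.949 and 0.946), to Mycn Zfand5 and Vezf1 (0.939 and 0.936) and to Myb Wdr12, Top3b and Icam2 (0.903, 0.899 and 0.884). Wdr12 is itself in the list of ribosome biogenesis genes below. The genes most alike to Mycl were Cd300c, Siglech and Prss30 (0.968, 0.951 and 0.927), of which Siglech is a dendritic marker used to name the class. For Max the best were Selo, Ikbkap and Il18bp, at 0.663, 0.619 and 0.615. Of the 1324 LTHSC-like cells 508 held a Myc UMI, 421 a Mycn UMI and 166 both, with a Mycn UMI in 32.7% of the cells with a Myc UMI and in 31.3% of the others. The cells with a Myc UMI were deeper, at a median of 6020 against 5196 UMIs. These shares pool all cells without thinning and were not tested.

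The genes known to act with the members were described from lists. Each count below is to be read beside the share of all genes called in that class, given above. No test compared a list with those shares. The 20 ribosome biogenesis genes counted as Myc targets were called higher than in LTHSC-like cells in 20 of 20 cases in GMP-like (median log2 fold change 0.66) and MEP-like cells (0.98), 19 in MPP-like (0.41) and megakaryocyte-like (0.51), 17 in monocyte-like (0.51) and 9 in LMPP-like cells (0.12). In basophil and mast-like cells 4 were higher and 1 lower (median 0.03), where 18.1% of all genes were higher. Of the same genes 18 were lower in late granulocyte-like cells (median -0.66) and 12 in dendritic-like cells (median -0.71), where none was higher. With RLE factors the counts were 17 in GMP-like, 15 in MPP-like, 13 in monocyte-like and 6 in LMPP-like cells, none lower. Nolc1, a nucleolar chaperone, had a log2 fold change of 1.65 in MEP-like and 1.15 in GMP-like cells, and Mrto4, needed for the large ribosomal subunit, 1.45 and 1.18. Medians over all genes lay between -0.26 and -0.03 in these comparisons.

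Of the 20 metabolism and growth targets of Myc 18 were tested. In GMP-like cells 16 were higher and 1 lower (median 1.05), in MEP-like cells 16 and 2 (median 1.31), in MPP-like and monocyte-like cells 16 and 1 each, in megakaryocyte-like cells 15 and 1, in LMPP-like cells 12 and 2 and in basophil and mast-like cells 10 and 1. In late granulocyte-like cells 6 were higher and 8 lower, and in dendritic-like cells 2 and 9. Tfrc, the transferrin receptor, was at 3.16 in MEP-like cells and Mthfd2, a mitochondrial folate enzyme, at 2.44 in monocyte-like cells. Ccnd2, a D-type cyclin, went the other way, at -1.04 in GMP-like and -0.77 in MEP-like cells, as did Hk2, a hexokinase, at -2.44 in MEP-like cells.

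The E-box was found in 3 of the 15 ribosome biogenesis promoters matched (20%) and in 5 of the 17 metabolism promoters (29.4%), against 7.24% of all. Most matched promoters of both lists did not hold the box. The promoters of Nop2, an rRNA methyltransferase, and Cdk4, a cell cycle kinase with 4 boxes, are shown as examples that hold it. They lie at chr6:125131633-125131932 and chr10:127063285-127063584 (GRCm38.p6, plus strand), with the boxes in capitals:
Nop2: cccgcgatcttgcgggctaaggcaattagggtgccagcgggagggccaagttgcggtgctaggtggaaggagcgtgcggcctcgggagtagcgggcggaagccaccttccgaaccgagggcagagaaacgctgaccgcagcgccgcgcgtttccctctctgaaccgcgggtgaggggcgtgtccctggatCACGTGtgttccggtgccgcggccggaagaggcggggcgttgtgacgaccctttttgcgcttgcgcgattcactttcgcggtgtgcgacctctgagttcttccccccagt
Cdk4: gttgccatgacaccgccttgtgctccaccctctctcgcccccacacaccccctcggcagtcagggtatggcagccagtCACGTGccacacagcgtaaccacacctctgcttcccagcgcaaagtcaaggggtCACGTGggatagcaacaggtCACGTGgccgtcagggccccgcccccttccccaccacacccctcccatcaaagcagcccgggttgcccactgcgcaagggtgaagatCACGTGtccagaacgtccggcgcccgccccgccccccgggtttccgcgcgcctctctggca
Nop2 was higher in MEP-like cells by a log2 fold change of 1.05, and Cdk4 in GMP-like cells by 0.76 (edgeR). In MEP-like cells all 3 ribosome biogenesis genes with the box (median 0.93) and all 12 without it (median 0.99) were higher on the log2 scale. The Myb core AACGG, searched on both strands, was in 17.7% of all promoters and in 5 of 14 Myb targets, Bcl2, Ccnb1, Elane, Mat2a and Rag2. The Myb targets hold class markers and were not compared between classes.

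Genes of the Max network were called in both directions. Of the 8 Max network genes tested, 4 were higher in late granulocyte-like cells, Mxd3 at a log2 fold change of 4.80, Mxd1 at 3.93, Mlx at 1.51 and Mxi1 at 1.33, and 3 were lower. Mxd1, the Max partner known from differentiating myeloid cells, rose from 9.56 CPM in LTHSC-like to 76.7 CPM in late granulocyte-like cells. Fitted sizes in this class depend on the scaling. Max itself was fitted at 1.15 there with a ratio of CPM means of 0.26 on the log2 scale, and genes of all lists share that scaling. In GMP-like cells 6 of the 8 were lower, Mnt at -1.15 and Mga at -0.70 among them, and 1 was higher. In monocyte-like cells 1 was higher and 4 lower, in MEP-like 2 and 4, in MPP-like 1 and 3, in LMPP-like 1 and 2, in megakaryocyte-like 0 and 2, in basophil and mast-like 0 and 1 and in dendritic-like cells 1 and 1. Mxd3 in the dendritic-like class was at 5.23 (49 UMIs, against 11 in LTHSC-like cells).

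Among the 16 Myc cofactors and turnover genes the count of higher and lower genes was 6 and 7 in GMP-like, 7 and 4 in MEP-like, 5 and 6 in monocyte-like, 5 and 3 in MPP-like, 5 and 2 in megakaryocyte-like, 3 and 1 in LMPP-like, 4 and 7 in late granulocyte-like, 2 and 8 in dendritic-like and 2 and 1 in basophil and mast-like cells. Of all genes 32.0% were higher and 39.5% lower in GMP-like cells, 34.4% and 38.5% in MEP-like and 18.1% and 21.6% in basophil and mast-like cells. Aurka, a mitotic kinase that stabilises Mycn protein, was higher at 3.00 in MEP-like cells, and Pim1, a cytokine-induced kinase, was lower at -2.94, from 378 CPM in LTHSC-like to 42.5 CPM in MEP-like cells. Of the 6 tested genes known to be repressed by Myc, Cdkn1c, the stem cell quiescence inhibitor p57, was lower in all 9 classes, from 31.9 CPM in LTHSC-like to 3.82 CPM in LMPP-like and 0.272 CPM in GMP-like cells. In that list 1 gene was higher and 4 lower in GMP-like cells and 1 and 5 in MEP-like and monocyte-like cells. Gadd45a, a growth arrest gene of the list, went the other way in MEP-like cells at 1.69.

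Mybl2, the cell cycle relative of Myb, was higher in 7 of the 9 classes, with a log2 fold change of 2.44 in MEP-like and 2.31 in monocyte-like cells. The 11 proliferation genes tested were all higher in GMP-like, LMPP-like, MEP-like, MPP-like, monocyte-like and basophil and mast-like cells, 10 of them in megakaryocyte-like and late granulocyte-like cells and 7 in dendritic-like cells, with none lower. Of the 6 Myb cofactors 1 was higher and 5 lower in GMP-like cells and 1 and 4 in MEP-like cells. Kmt2a, a histone methyltransferase of this list, was lower in all 9 classes, at -1.60 in GMP-like cells. Cebpb, a myeloid factor that works with Myb, was higher in GMP-like (1.22), monocyte-like (1.30) and late granulocyte-like cells (2.41) and lower in MEP-like cells (-1.73). The immediate early genes, which cell handling can raise, were lower than in LTHSC-like cells in 9 of 9 cases in the GMP-like, MEP-like, MPP-like, megakaryocyte-like and monocyte-like classes. The other classes were less uniform. With any pool left out, 3 were higher and 3 lower in basophil and mast-like cells and 2 and 7 in late granulocyte-like cells. In LMPP-like cells 8 were lower and in dendritic-like cells 4 to 5, with 0 higher. The part of these genes in the contrasts of the members was not tested.

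**Figure D4:**
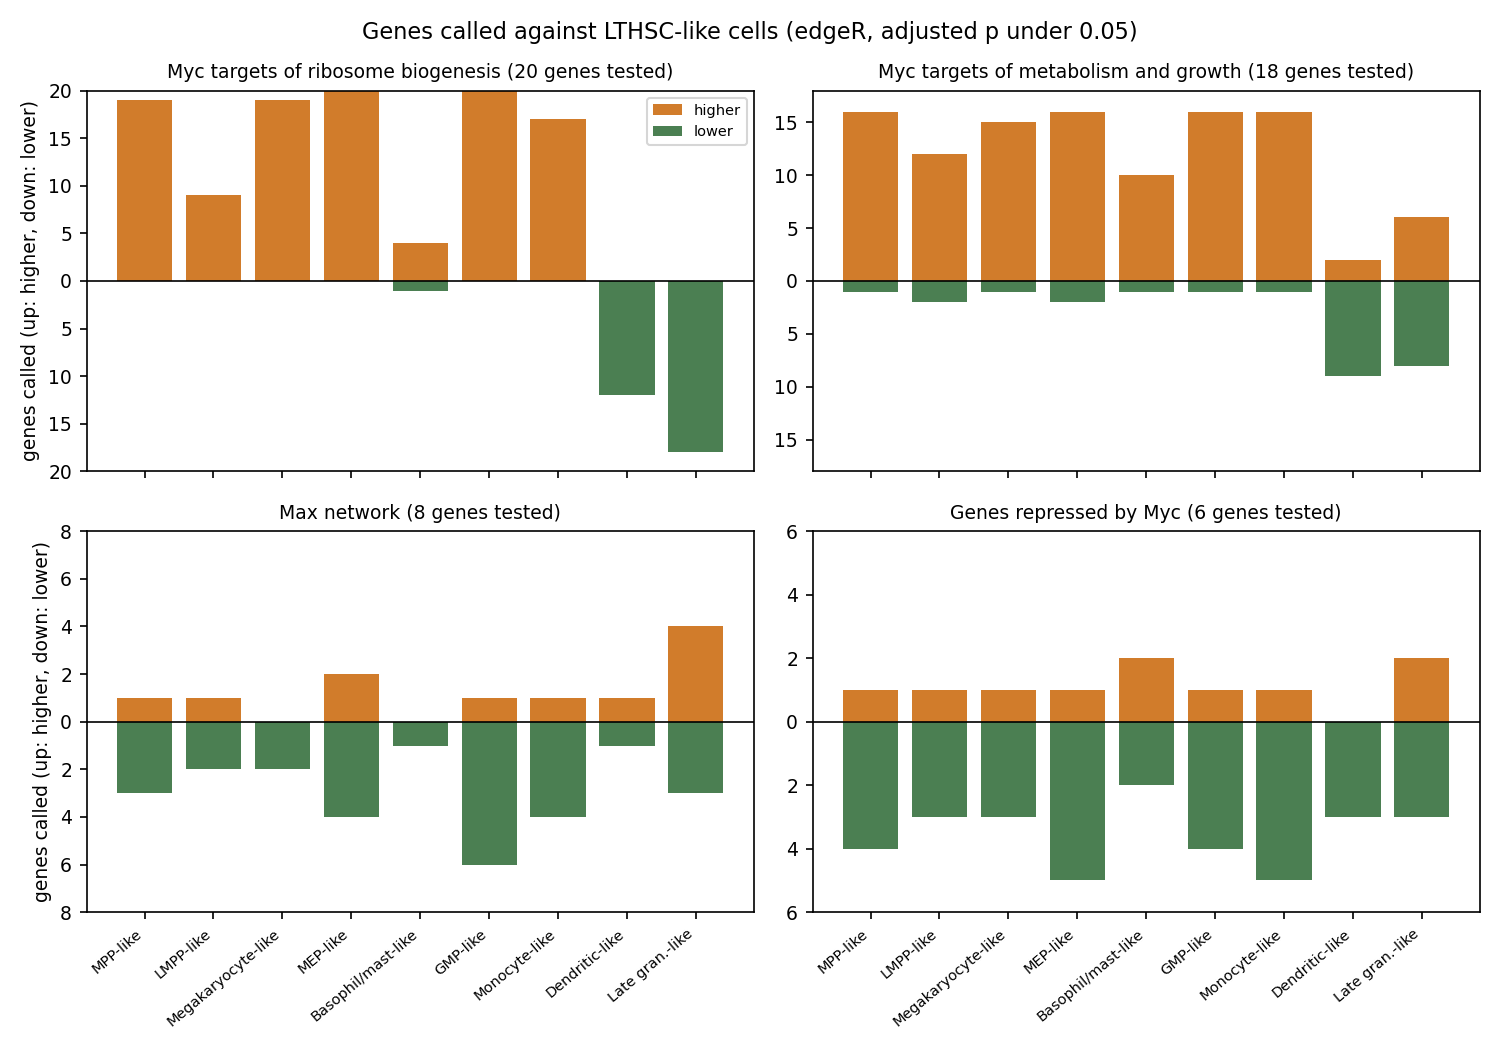
Genes of each list called higher or lower than in the LTHSC-like class by edgeR at an adjusted p under 0.05, by class. Ribosome biogenesis genes were higher in 20 of 20 cases in GMP-like and MEP-like cells and lower in 18 of 20 in late granulocyte-like cells.

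Housing was then compared within each class. Of 34 tests of a member in a class none passed, against 0.0147% of genes called in the basophil and mast-like class, 0.0132% in the LTHSC-like class and 0% in the other 8. The log2 fold changes of CVT against SPF lay between -0.51 (Mycn, MEP-like) and 0.27 (Myb, late granulocyte-like), with 0.689 the smallest edgeR adjusted p. In the LTHSC-like class they were -0.21 for Myc, -0.02 for Mycn, 0.10 for Myb and 0.08 for Max. In the GMP-like class they were -0.06 for Myc and -0.01 for both Myb and Max.

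The MEP-like class held the only test at an unadjusted p under 0.05, that of Myc. Myc was at 127, 116, 118 and 103 CPM in SPF pools 1, 2, 7 and 8 and at 108, 90.5, 105 and 94.3 CPM in CVT pools 3 to 6. The groups overlapped, and the log2 fold change was -0.19 (SE 0.076, edgeR unadjusted p = 0.0273, adjusted p = 0.689). Mycn in the same class was at 9.39, 9.49, 14.6 and 10.3 CPM in the SPF pools and at 7.36, 4.05, 11.5 and 7.03 CPM in the CVT pools, and its log2 fold change of -0.51 ran from -0.77 without CVT pool 5 to -0.29 without CVT pool 4. The mix of clusters moved beside both, and its part was not tested. Cluster 1, the Mycn-rich one, made up 25.2% to 35.5% of MEP-like cells in CVT and 32.5% to 38.8% in SPF pools. Cluster 9, low in both genes (Myc 77.8 and Mycn 0.604 CPM), made up 9.97% to 18.8% in CVT and 3.27% to 13.9% in SPF pools. The median UMI count per cell in cluster 9 was 29180, so its cells weigh more in the summed counts. The difference of the housing effect between LTHSC-like, GMP-like and MEP-like cells passed in none of 15 exact permutation tests (smallest adjusted p = 0.536). The smallest p each could give was 0.0286, which 9 of the 15 would have had to reach for 1 to pass, and the 3 tests of Mycl rested on 1 UMI in LTHSC-like and 3 in MEP-like cells, so these tests say nothing on whether the effects are alike.

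**Figure D5:**
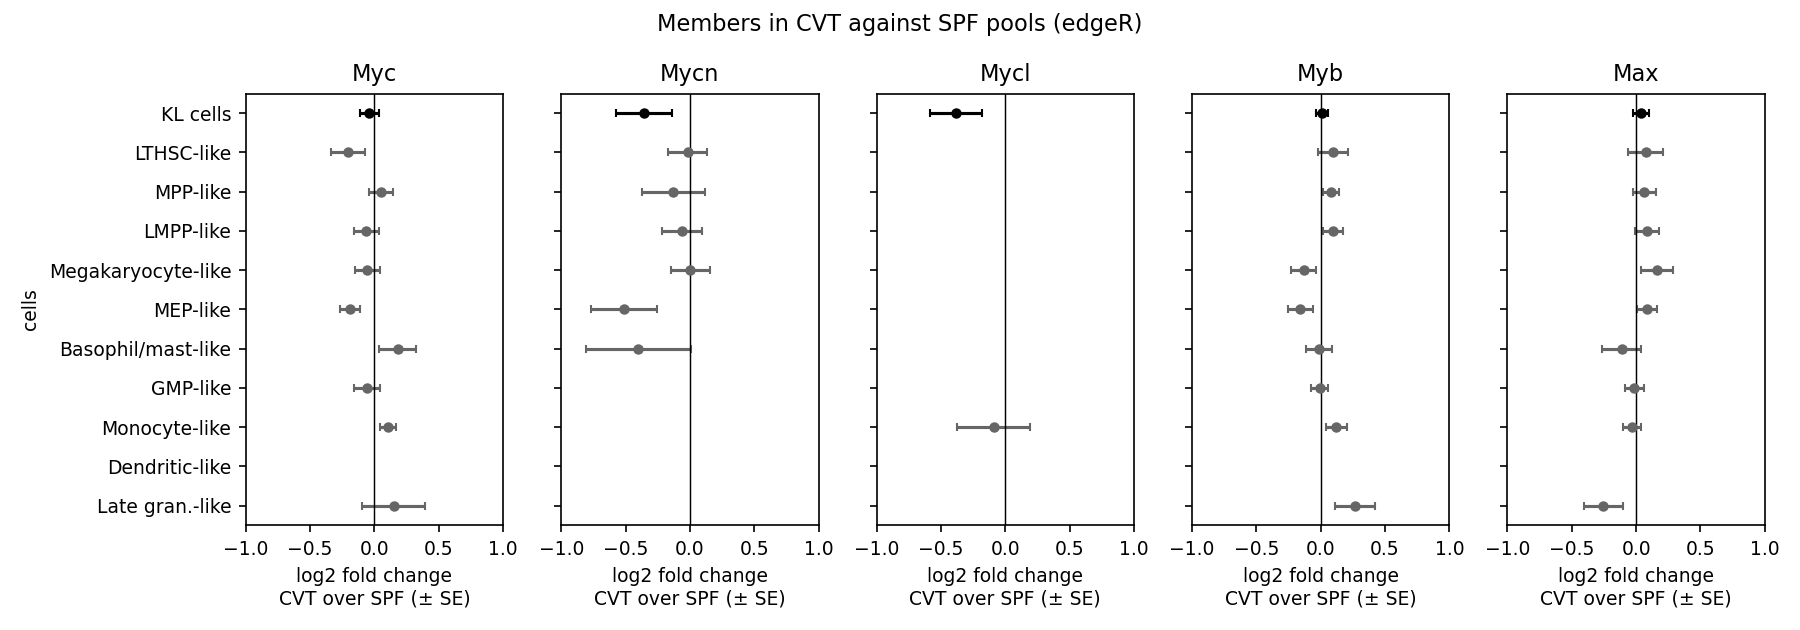
Log2 fold change of CVT against SPF for each member in KL cells and in the named classes, from edgeR, with bars of 1 SE derived from the F statistic. None passed an adjusted p of 0.05, and the values run from -0.51 to 0.27 within classes.

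Of the genes of the lists 1 passed the test of housing, in 1 class. Elane, the neutrophil elastase gene and a Myb target, was at 157, 163, 88.2 and 157 CPM in basophil and mast-like cells of SPF pools 1, 2, 7 and 8 and at 278, 403, 295 and 272 CPM in those of CVT pools 3 to 6. All CVT pools lay above all SPF pools, and the log2 fold change was 1.19 (SE 0.147, edgeR adjusted p = 0.000205). Of 6798 genes tested in this class 1 was called (0.0147%), and the share of all genes with groups apart was not counted there. Elane marks GMP-like cells rather than basophils, and the other 11 GMP markers summed to 2770 to 3330 CPM in these cells of SPF pools and 2983 to 4252 CPM in those of CVT pools, whose part in the result was not tested. GMP-like cells made up 8.20% to 16.4% of CVT and 5.81% to 7.94% of SPF pools, and the part of that was not tested either. Myb targets passed the test of housing in no other class, where their largest log2 fold changes were 1.45 in megakaryocyte-like, 0.999 in LMPP-like and 0.83 in MEP-like cells.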

How the data were processed

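Libraries were made with the 10x Genomics 3′ version 2 kit from 8 pools of sorted KL cells, and the authors processed the reads with Cell Ranger. The submitters' notes give mm9 as the build, and the Cell Ranger version was not given in the sources used here. The deposited table held UMI counts per gene and cell, not normalized, for the cells kept by the authors, and no column of another series was found (0 columns). Cells were scaled to 10000 UMIs, log transformed and clustered by Leiden (leidenalg 0.10.2, resolution 2, 30 principal components, 30 neighbours) on 1000 variable genes, leaving out the members and the list genes except Myb targets and markers. A cluster was named from marker lists, and doublets were not called. Counts were summed per pool and class (10 or more cells) and tested with edgeR 4.0.16 (trimmed mean scaling, filterByExpr, quasi-likelihood, Benjamini-Hochberg adjusted p under 0.05 over all genes tested) in R 4.3.3. Class contrasts had the pool as a block. The SE of an edgeR log2 fold change was taken as its absolute value divided by the square root of the F statistic. Each pool is 1 replicate of 2 or 3 mice. Levels are CPM of summed counts, with means over pools. Permutation tests were exact and two-sided, on CPM for housing over all KL cells and on log2(CPM + 1) for the others. Shares of cells with a UMI were computed after exact thinning to 2500 UMIs, and the counts cover counting error only. The edgeR step was tested on simulated data with 200 changed genes. Promoters were RefSeq windows of 300 bases (GRCm38.p6), matched by symbol. The notes name another build, mm9, which was not checked against the counts, and no coordinate was converted. Cip2a was matched as C330027C09Rik, and the markers Ighm and Trbc2 were not matched.

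The members and gene lists were chosen with earlier results of these data known. Named genes were all members, list genes past the test of housing, up to 4 list genes per direction, list and class contrast with the largest changes, and the 3 genes most correlated with each member over clusters, of which 1 is not reported here. Genes of the lists given for their CPM or motif, and the genes leading a cluster, are named beside them. Alternatives were RLE factors, no filter on low counts, DESeq2 1.42.0, pool set as a covariate, a filter that kept cells of 1000 genes or more and 10% mitochondrial UMIs or fewer, KL cells without mature clusters, resolution 1, 50 components, clustering with the members and list genes, another pseudocount, thinning depth, and each pool left out. The mature clusters left out included the whole monocyte-like class.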

Additional observations from a re-analysis of the deposited data

Results flagged for a closer look

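Among 100 groups of 4 pools, 6 held a pool that stood apart from the other 3 by Dixon's test at the 95% level, and chance alone marks about 1 group in 20. Mycl over all KL cells was 0.597 CPM in CVT pool 5, above the other CVT pools at 0.485 to 0.493 CPM. The other 5 rested on 1 UMI each, with the remaining pools of the group at 0. These were Mycn in dendritic-like cells of SPF pool 2 at 10.5 CPM, and Mycl in LTHSC-like cells of SPF pool 8 at 0.462 CPM, in late granulocyte-like cells of CVT pool 5 at 0.359 CPM, in MEP-like cells of SPF pool 1 at 0.134 CPM and in megakaryocyte-like cells of CVT pool 3 at 0.505 CPM.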

How the results depend on the processing

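No member passed the test of housing in KL cells or in a class under any of the alternatives run. No neighbour pair of the order and no difference of the housing effect between classes passed either, but with 45 pairs and a smallest p of 0.00781 (0.0156 with a pool left out), and 15 differences and a smallest p of 0.0286, those tests could hardly pass and say nothing on stability. The 28 calls of members against the LTHSC-like class were 23 to 33 under the alternatives and 26 to 31 with a pool left out. Of the single called contrasts of members, 370 recomputed values kept direction and call, 18 kept direction and lost the call, and 4 changed sign. Those 4 were Max in GMP-like cells, at -0.0406 with RLE factors and -0.0502 with DESeq2, and in monocyte-like cells, at -0.0089 and -0.0127. Housing values near 0, which passed in no alternative run, changed sign. In KL cells Myb stood at -0.0184 without the mature clusters and between -0.0145 and 0.0325 with a pool left out, and Myc between -0.0885 and 0.0178, the upper end without SPF pool 1. In GMP-like cells Max stood at 0.001 with 50 components and 0.0324 with the members and list genes clustered, and between -0.0334 and 0.0181 with a pool left out. Myb there stood at 0.0013 with no filter, 0.0064 with 50 components and 0.0196 with list genes clustered, and between -0.0516 and 0.0408 with a pool left out, and Myc there between -0.1556 and 0.0247. In LTHSC-like cells Myc stood at 0.0678 at resolution 1 and 0.005 with 50 components, Mycn at 0.0594 with list genes clustered and between -0.1645 and 0.1017 with a pool left out, and Myb between -0.0566 and 0.1954. Mycn ran from -0.5257 to -0.1871 in KL and from -0.7724 to -0.2866 in MEP-like cells with a pool left out. The causes were not tested. Shares of cells with a UMI moved with depth by construction. Thinned to 5000 UMIs and unthinned they were 46.1% and 62.6% for Myc in MPP-like, 28.1% and 31.6% for Mycn in LTHSC-like, 22.3% and 26.3% for Mycl in dendritic-like, 79.0% and 84.2% for Myb in basophil and mast-like and 32.2% and 48.2% for Max in late granulocyte-like cells. No paired analysis was possible because the labels give CVT and SPF pools different mouse numbers. Mycl, with 196 UMIs in all, is limited by depth.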
